A study of Homo sapiens with 6 samples.

Results

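The transcripts described here encode 9 enzymes of serine synthesis and of the folate pathway that carries single-carbon units, chosen by gene name among the 58395 genes of a count table from SH-SY5Y cells. SH-SY5Y is a human neuroblastoma line that is widely differentiated into neuron-like cells. Each of the 9 names matched 1 row of the table: PHGDH, PSAT1, PSPH, SHMT1, SHMT2, MTHFD1, MTHFD1L, MTHFD2 and ALDH1L2. In the SH_tau group, SH-SY5Y cells were transiently transfected with a pcDNA3.1 plasmid carrying the cDNA of Tau 0N4R, also called isoform D. In the SH_ctrl group, they received the empty plasmid. After transfection, both groups were differentiated with retinoic acid and then with BDNF in serum-free medium. Each group has 3 libraries made from poly(A) RNA of whole cultures, no source describes a selection of transfected cells, and none says that the replicates were separate cultures, so p-values measure only the spread between these libraries.

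PHGDH, PSAT1 and PSPH turn an intermediate of glycolysis into serine in the cytosol. Serine hydroxymethyltransferase then moves a carbon from serine to tetrahydrofolate and leaves glycine, through SHMT1 in the cytosol and SHMT2 in the mitochondrion. In the mitochondrion, MTHFD2 oxidizes the folate-bound carbon to the formyl level, MTHFD1L releases it as formate, and ALDH1L2 oxidizes it to carbon dioxide with formation of NADPH. Formate leaves the mitochondrion and is bound again to folate by MTHFD1, a trifunctional enzyme of the cytosol, where the carbon serves purine, thymidylate and methionine synthesis. Several of these genes, among them PHGDH, PSAT1, SHMT2, MTHFD2 and ALDH1L2, are known targets of ATF4, the transcription factor of the integrated stress response.

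The transcripts of all 4 mitochondrial enzymes and of PHGDH and PSAT1 were lower in the libraries labelled SH_tau, while PSPH and both cytosolic folate enzymes, SHMT1 and MTHFD1, did not pass the test. Of these calls, that of MTHFD1L (log2 fold change -0.52, edgeR adjusted p 0.0712) was lost in 11 of 20 alternatives. In edgeR's quasi-likelihood test over the 16778 genes with enough reads, a call needed an adjusted p under 0.1 and a log2 fold change beyond 0.5 in either direction. All 9 genes were among those tested. By this rule 6 of the 9 were called lower, against 8.42% of all genes tested, and 0 were called higher, against 9.38% of all genes tested. The count of higher enzymes was also 0 with DESeq2 and with limma-voom, which called 1772 and 1631 of all genes tested higher. It was 0 at an unadjusted p under 0.05 in edgeR, which 4876 of all genes tested had in either direction. In each of the 6, every SH_tau library lay below every SH_ctrl library, a pattern found in 16.8% of all genes tested. The median log2 fold change of the 9 genes was -0.82, and that of all genes tested was -0.03. In bulk RNA, fewer cells that express a gene cannot be told apart from less RNA per cell.

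Promoter sequences are shown for 3 genes that were called lower and for 1, SHMT1, that was not, so that their start regions can be read side by side. RefSeq windows on GRCh38.p14, 250 bases before to 50 bases after a start, were matched for 6 of the 9 genes. Each is written in the direction of transcription, with capitals marking 3 motifs searched on both strands: TGATGNAA, the core of the element bound by ATF4 with C/EBP proteins, CACGTG, the E-box bound by MYC and related factors, and CCAAT, the box bound by NF-Y. The motifs share no overlap in the windows printed. MTHFD2 (chr2:74198365-74198664, plus strand) fell most, PSAT1 (chr9:78296875-78297174, plus strand) was called lower, MTHFD1L (chr6:150866236-150866535, plus strand, 1 of 4 windows for that gene) holds all 3 motifs, and SHMT1 (chr17:18363501-18363800, minus strand) was not called.
MTHFD2: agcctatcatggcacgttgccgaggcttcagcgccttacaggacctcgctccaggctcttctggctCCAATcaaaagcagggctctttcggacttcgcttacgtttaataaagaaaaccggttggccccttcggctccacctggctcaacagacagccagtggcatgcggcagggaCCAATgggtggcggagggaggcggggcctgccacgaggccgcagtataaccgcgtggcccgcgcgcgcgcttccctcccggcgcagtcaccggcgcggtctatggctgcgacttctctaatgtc
PSAT1: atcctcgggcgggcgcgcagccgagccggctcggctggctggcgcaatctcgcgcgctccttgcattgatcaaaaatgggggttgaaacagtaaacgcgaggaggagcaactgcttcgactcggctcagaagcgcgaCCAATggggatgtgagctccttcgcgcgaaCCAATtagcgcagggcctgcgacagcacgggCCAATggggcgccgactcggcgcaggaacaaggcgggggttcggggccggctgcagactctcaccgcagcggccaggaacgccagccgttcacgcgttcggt
MTHFD1L: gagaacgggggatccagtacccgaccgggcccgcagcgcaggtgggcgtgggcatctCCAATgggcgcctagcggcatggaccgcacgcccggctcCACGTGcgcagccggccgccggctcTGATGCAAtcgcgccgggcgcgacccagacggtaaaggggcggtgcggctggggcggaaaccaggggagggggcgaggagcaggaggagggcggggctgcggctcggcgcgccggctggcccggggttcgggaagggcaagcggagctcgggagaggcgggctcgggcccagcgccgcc
SHMT1: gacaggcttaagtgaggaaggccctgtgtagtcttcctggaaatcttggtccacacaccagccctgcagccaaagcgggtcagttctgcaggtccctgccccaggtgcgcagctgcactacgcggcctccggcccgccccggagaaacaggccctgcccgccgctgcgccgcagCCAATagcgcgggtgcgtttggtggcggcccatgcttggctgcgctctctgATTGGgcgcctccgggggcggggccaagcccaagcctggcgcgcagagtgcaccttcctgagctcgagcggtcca

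CCAAT was found 2 times in the MTHFD2 window, 3 times in that of PSAT1, 2 times in that of SHMT1, 2 times in that of MTHFD1 and 1 time in that of PHGDH. It stood in 34.6% of all 34943 windows. TGATGNAA was found in MTHFD1L only among the 6 genes, as TGATGCAA in 3 of its 4 windows, which overlap each other, and stood in 3.62% of all windows. In the window printed it began at position -129 from the start. CACGTG stood in 7.23% of all windows and was found in MTHFD1 and in the same 3 windows of MTHFD1L. PSPH, SHMT2 and ALDH1L2 had no matched window and were not searched. A match is a string of letters and not a measured binding site. Likewise, a window without a match does not show that a gene lacks such a site.

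Library totals ran between 27945481 and 31706415 counts. Transcripts of the mitochondrial genome made up 45.8%, 57.8% and 53.8% of all reads in SH_tau, against 45.6%, 30.5% and 45.6% in SH_ctrl, and in a fit with this share as a covariate 5 of the enzymes called lower were still called, all but MTHFD1L. Levels are given as CPM, counts scaled to a TMM-adjusted library size, which compare 1 gene between libraries. Neuroblastoma markers were abundant, with summed levels of 1110 to 1230 CPM over 8 noradrenergic genes in SH_tau and 1260 to 1550 CPM in SH_ctrl. Among these, DBH was called lower (log2 fold change -1.07, edgeR adjusted p 0.0344), TH reached at most 0.851 CPM in any library, and the part of this in the results was not tested. Markers of astrocytes, oligodendrocytes, leukocytes and endothelium summed to at most 0.378 CPM per list and library, with GFAP, MOG, AIF1, PECAM1 and CDH5 at 0. MAPT, the Tau gene, had 34.6, 32.6 and 34.6 CPM in SH_tau, against 34.8, 51.9 and 41.5 CPM in SH_ctrl. It was therefore not higher in the libraries labelled SH_tau (log2 fold change -0.33, SE 0.18, edgeR adjusted p 0.239), and each direction below is that of the labels. The study also probed Tau protein by Western blot in overexpressing and control cells, which RNA counts do not measure.

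**Figure D1:**
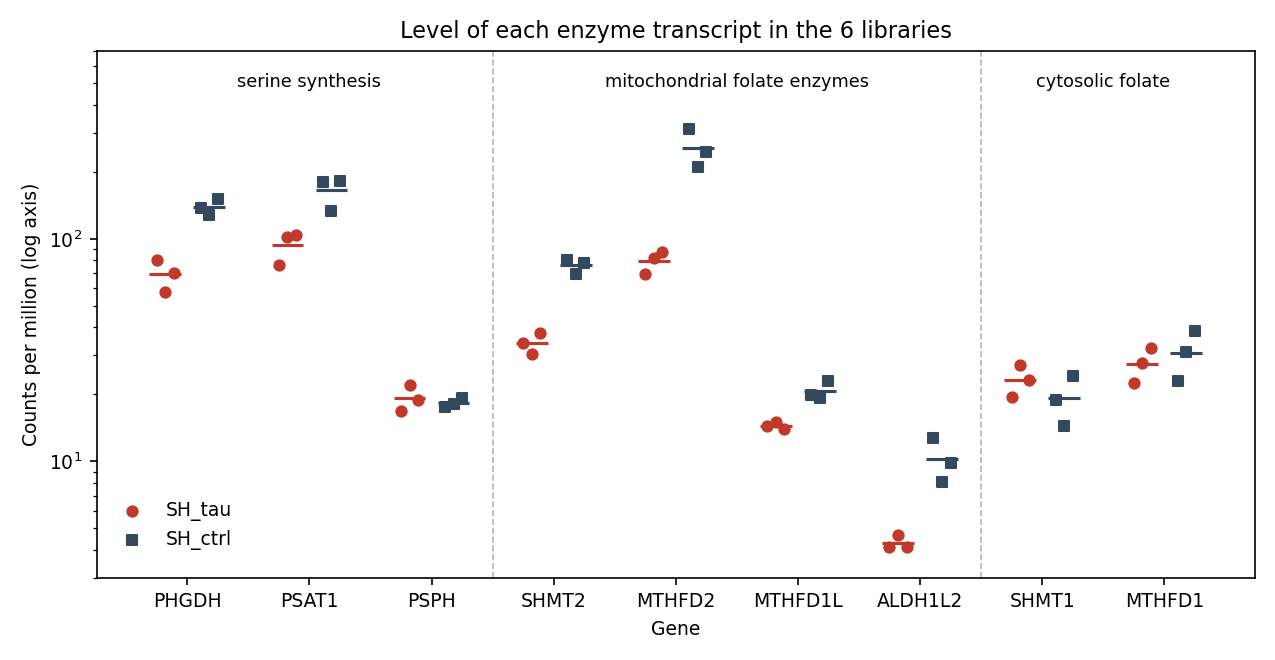
CPM of each enzyme transcript on a log axis, with 1 point per library (SH_tau circles, SH_ctrl squares) and a bar at the group mean, ordered by role. The groups are apart for PHGDH, PSAT1 and the 4 mitochondrial enzymes, and overlap for PSPH, SHMT1 and MTHFD1; MTHFD2 lies at 69.3 to 87.7 CPM in SH_tau and 211 to 312 CPM in SH_ctrl.

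PHGDH, phosphoglycerate dehydrogenase, catalyses the entry step of serine synthesis, and its gene lies on GRCh38 chromosome 1 (119648411 to 119744218, plus strand). It had 80.5, 57.9 and 69.9 CPM in SH_tau, against 138, 128 and 151 CPM in SH_ctrl. The highest SH_tau library stayed well under the lowest SH_ctrl library. PHGDH was called lower, with a log2 fold change of -1.0 (SE 0.18, edgeR adjusted p 0.0113), or 50.1% of the SH_ctrl level.

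PSAT1, phosphoserine aminotransferase, carries out the next step from a gene on chromosome 9 (78297125 to 78330093, plus strand). It had 76.1, 102 and 104 CPM in SH_tau, against 181, 133 and 182 CPM in SH_ctrl. SH_ctrl replicate 2 was the lowest of its group but still above all 3 SH_tau libraries. PSAT1 was called lower (log2 fold change -0.82, SE 0.20, edgeR adjusted p 0.0286), a call that was lost without SH_ctrl replicate 1 (log2 fold change -0.75, adjusted p 0.142).

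PSPH, the phosphatase that releases free serine (chromosome 7, 56011051 to 56051604, minus strand), stood apart from the other serine synthesis genes. It had 16.9, 22.0 and 18.9 CPM in SH_tau, against 17.5, 18.2 and 19.3 CPM in SH_ctrl, so the SH_ctrl libraries lay inside the range of SH_tau. Its log2 fold change was 0.07 with a 95% interval of -0.30 to 0.44 (edgeR adjusted p 0.811), and the sign turned under scaling to total counts (-0.28), with the mitochondrial share as covariate (-0.06) and without SH_tau replicate 2 (-0.05). Scaling to total counts rather than by TMM shifted the median log2 fold change of all genes tested by -0.332. Summed over PHGDH, PSAT1 and PSPH, the level was 183 ± 9.44 CPM in SH_tau and 323 ± 38.2 CPM in SH_ctrl (SD, n = 3 each).

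SHMT2, the mitochondrial serine hydroxymethyltransferase (chromosome 12, 57229573 to 57234935, plus strand), had 33.9, 30.5 and 37.8 CPM in SH_tau, against 80.5, 69.4 and 77.9 CPM in SH_ctrl. The libraries of each group lay close together and the groups were far apart. SHMT2 fell to 44.9% of the SH_ctrl level (log2 fold change -1.16, SE 0.17, edgeR adjusted p 0.00659). Its cytosolic counterpart SHMT1 (chromosome 17, 18327860 to 18363563, minus strand) had 19.4, 27.2 and 23.3 CPM in SH_tau, against 18.9, 14.5 and 24.2 CPM in SH_ctrl. These ranges overlapped, and SHMT1 was not called, with a log2 fold change of 0.28 and a 95% interval of -0.18 to 0.74 (edgeR adjusted p 0.407). The sign of SHMT1 turned under scaling to total counts (-0.05) and with the mitochondrial share as covariate (-0.16).

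MTHFD2, the mitochondrial methylenetetrahydrofolate dehydrogenase and cyclohydrolase (chromosome 2, 74186172 to 74217565, plus strand), is abundant in embryonic and tumour cells and low in most adult tissues. It had 69.3, 81.7 and 87.7 CPM in SH_tau, against 312, 211 and 246 CPM in SH_ctrl. Each SH_tau library was far below the lowest SH_ctrl library. MTHFD2 fell to 31.0% of the SH_ctrl level (log2 fold change -1.69, SE 0.20, 95% interval -2.12 to -1.25, edgeR adjusted p 0.00321), which placed it at rank 44 from the lowest log2 fold change among the 16778 genes tested. SLC4A5, on the opposite strand, shares 1324 exonic bases with MTHFD2 and had 69, 119 and 95 reads in SH_tau, against 49, 41 and 44 reads in SH_ctrl, and whether the reads were counted by strand is not given in the sources used here. Further exonic overlaps with a gene on the other strand included 197 bases of SHMT1 with SMCR8, 33 bases of SHMT2 with NDUFA4L2, 178 bases of MTHFD1 with ZBTB25, 1556 bases of MTHFD1 with a lncRNA of 15 to 19 reads in SH_tau and 16 to 33 reads in SH_ctrl, and 145 and 131 bases of ALDH1L2 with NOPCHAP1 and WASHC4. WASHC4 had 932, 1166 and 1040 reads in SH_tau, against 2434, 2192 and 1335 reads in SH_ctrl, more than ALDH1L2 in every library and lower in SH_tau like ALDH1L2, and the part of this overlap in the result for ALDH1L2 was not tested.

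MTHFD1L, the mitochondrial formate-tetrahydrofolate synthetase (chromosome 6, 150865679 to 151101887, plus strand), changed least among the 4 mitochondrial enzymes. It had 14.4, 15.0 and 14.0 CPM in SH_tau, against 19.8, 19.2 and 23.0 CPM in SH_ctrl. The groups did not overlap, but the gap was narrow. The log2 fold change was -0.52 (SE 0.17, edgeR adjusted p 0.0712), close to both thresholds. The call was lost in 11 of 20 alternatives, with adjusted p between 0.0516 and 0.245 over all 20, and among these without SH_tau replicates 1, 2 and 3 (0.132, 0.177 and 0.245), without SH_ctrl replicate 1 (0.172) and without SH_ctrl replicate 3, where the log2 fold change was -0.44.

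ALDH1L2, the mitochondrial formyltetrahydrofolate dehydrogenase (chromosome 12, 105019784 to 105107643, minus strand), was the least abundant of the 9. It had 4.13, 4.66 and 4.11 CPM in SH_tau, against 12.8, 8.07 and 9.81 CPM in SH_ctrl. In raw counts these were 111 to 123 reads in SH_tau and 288 to 415 reads in SH_ctrl. ALDH1L2 fell to 42.1% of the SH_ctrl level (log2 fold change -1.25, SE 0.22, edgeR adjusted p 0.0103).

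MTHFD1, the cytosolic enzyme that combines the activities of dehydrogenase, cyclohydrolase and formate-tetrahydrofolate synthetase (chromosome 14, 64388031 to 64463457, plus strand), had 22.4, 27.6 and 32.3 CPM in SH_tau, against 22.9, 31.0 and 38.4 CPM in SH_ctrl. The values of the groups were interleaved. MTHFD1 was not called (log2 fold change -0.16, 95% interval -0.63 to 0.30, edgeR adjusted p 0.640), and the sign turned without SH_ctrl replicate 3 (0.02).

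Summed over the 4 mitochondrial enzymes, the level was 132 ± 10.9 CPM in SH_tau and 363 ± 59.0 CPM in SH_ctrl (SD, n = 3 each). MTHFD2 had most of these reads in both groups. CPM are not scaled to gene length, so this share does not compare amounts of RNA between the enzymes. Summed over SHMT1 and MTHFD1, it was 50.7 ± 7.76 CPM in SH_tau and 50.0 ± 11.1 CPM in SH_ctrl. The median log2 fold change was -1.20 for the 4 mitochondrial enzymes and 0.06 for the 2 cytosolic folate enzymes.

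**Figure D2:**
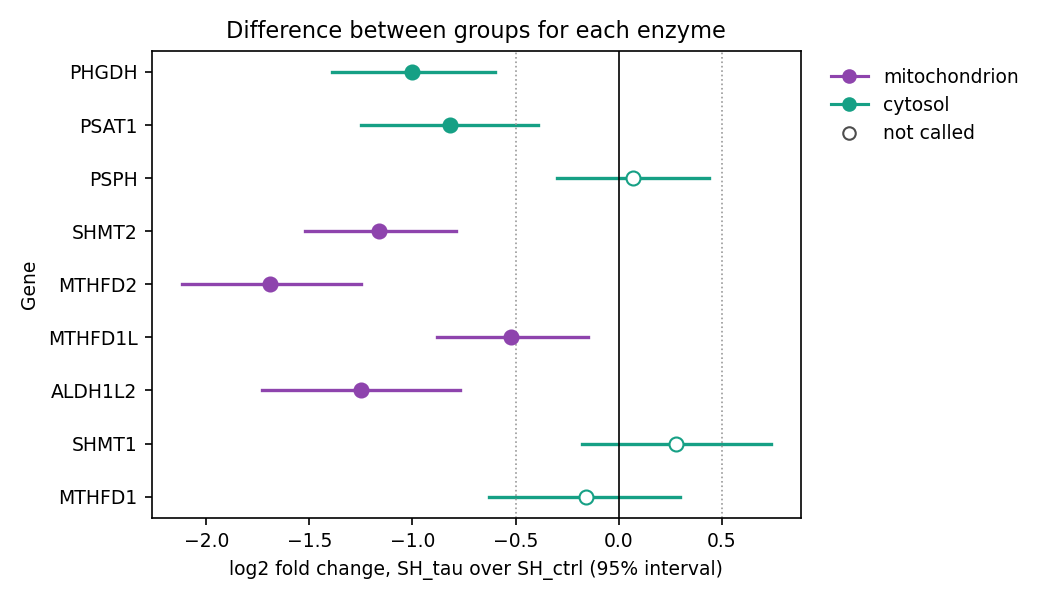
Log2 fold change of SH_tau over SH_ctrl for each enzyme with its 95% interval, coloured by compartment, where open points were not called and dotted lines mark a log2 fold change of 0.5 in either direction. MTHFD2 stands lowest at -1.69 and SHMT1 highest at 0.28, and the intervals of PSPH, SHMT1 and MTHFD1 include 0.

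The balance between compartments was read within each library as a ratio of RPKM, reads scaled to gene length and library total, which needs no scaling between libraries. SHMT2 over SHMT1 was 2.63, 1.68 and 2.44 in SH_tau, against 6.40, 7.19 and 4.84 in SH_ctrl. The mean log2 ratio was 1.14 ± 0.34 in SH_tau and 2.60 ± 0.29 in SH_ctrl (SD, n = 3 each), a difference of -1.46. The ratio was lower in every SH_tau library than in any SH_ctrl library.

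MTHFD2 over MTHFD1 was 5.97, 5.69 and 5.23 in SH_tau, against 26.2, 13.1 and 12.3 in SH_ctrl. The SH_tau libraries were tightly grouped, and SH_ctrl replicate 1 stood above the other SH_ctrl libraries. The difference of the mean log2 ratios was -1.53, and -1.18 without SH_ctrl replicate 1. MTHFD1L over MTHFD1, by contrast, was 1.20, 1.01 and 0.809 in SH_tau, against 1.61, 1.16 and 1.12 in SH_ctrl, so the groups overlapped. Its difference of -0.36 on the log2 scale became -0.19 without SH_ctrl replicate 1 and -0.21 without SH_tau replicate 3. The ratios themselves depend on the gene lengths behind the deposited RPKM, while the differences between groups do not. With canonical transcript lengths, chosen after seeing the data, MTHFD2 over MTHFD1 had a geometric mean of 2.09 in SH_tau and 6.02 in SH_ctrl, SHMT2 over SHMT1 of 1.72 in SH_tau and 4.72 in SH_ctrl, and MTHFD1L over MTHFD1 of 0.487 in SH_tau and 0.626 in SH_ctrl. No p was computed for the ratios.

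**Figure D3:**
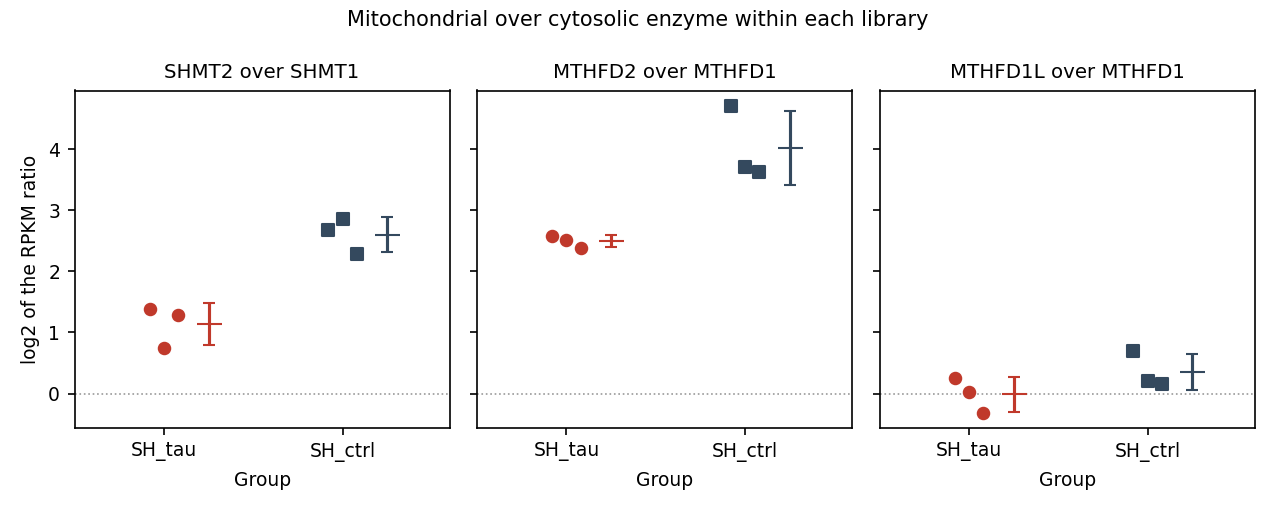
Log2 of the RPKM ratio of a mitochondrial over a cytosolic enzyme, 1 point per library, with the group mean and SD at the right of the points. For SHMT2 over SHMT1 and MTHFD2 over MTHFD1 all SH_tau points lie under all SH_ctrl points, while for MTHFD1L over MTHFD1 the SH_tau points (-0.31 to 0.26) and the SH_ctrl points (0.16 to 0.69) overlap.

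Levels were compared between genes in the deposited RPKM. These are scaled to library totals, which shifted the median log2 fold change of all genes tested by -0.332 relative to TMM. They therefore rank genes within a group, and the CPM given above compare the groups. PSAT1 was the highest in both groups, at 37.9 ± 2.55 RPKM in SH_tau and 84.2 ± 2.54 RPKM in SH_ctrl (SD, n = 3 each), followed by MTHFD2 at 14.5 ± 1.43 RPKM in SH_tau and 58.6 ± 6.47 RPKM in SH_ctrl. Both stood apart from their neighbours in the order in both groups. In SH_ctrl, SHMT2 (17.6 RPKM) and PHGDH (16.9 RPKM) came next and their libraries overlapped. PSPH (7.52 RPKM) stood apart from its neighbours, and MTHFD1L (4.63 RPKM), MTHFD1 (3.72 RPKM) and SHMT1 (2.93 RPKM) followed, each overlapping with the next. In SH_tau, PHGDH (6.89 RPKM), SHMT2 (6.34 RPKM) and PSPH (6.18 RPKM) overlapped as neighbours, and so did SHMT1 (2.82 RPKM), MTHFD1 (2.59 RPKM) and MTHFD1L (2.58 RPKM). ALDH1L2 was the lowest in both groups, at 0.451 RPKM in SH_tau and 1.34 RPKM in SH_ctrl. The length behind the deposited RPKM, which the methods of the study call transcript length, is 9217 bases for PHGDH, against 1866 bases for its canonical transcript. For PSAT1 these lengths are 2188 and 2206 bases. With canonical lengths, an alternative chosen after seeing the data, PHGDH came to 34.0 ± 11.2 RPKM in SH_tau and 83.7 ± 8.19 RPKM in SH_ctrl, which moved it up to the level of PSAT1 in both groups. With these lengths, MTHFD2 (16.1 RPKM) and SHMT2 (14.2 RPKM) overlapped in SH_tau. In SH_ctrl these lengths moved the rank of every enzyme but ALDH1L2. MTHFD1L (6.74 RPKM) then came below MTHFD1 (11.1 RPKM) and SHMT1 (8.43 RPKM). It stood apart from SHMT1, but its highest library (7.43 RPKM) just reached the lowest of MTHFD1 (7.41 RPKM). PSPH (10.5 RPKM) overlapped with both MTHFD1 and SHMT1.

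Reads that go to close copies were few. The table holds 7 pseudogene rows of MTHFD2, whose reads came to 0.82% of those of MTHFD2 itself, and PSPHP1 came to 3.05% of the reads of PSPH. Adding these reads to their genes changed no call among the 9. The count of enzymes called lower was 4 to 6 over the 20 alternatives, and PHGDH, SHMT2, MTHFD2 and ALDH1L2 were called in all 20. Without SH_ctrl replicate 1, where the calls over all genes dropped to 71 lower and 179 higher against 1413 lower and 1573 higher with all libraries, 4 enzymes were still called, with adjusted p of 0.0594 for MTHFD2, 0.0669 for SHMT2, 0.0876 for PHGDH and 0.0916 for ALDH1L2 (edgeR). Fold changes of all genes went with GC content (Spearman 0.476 across genes, which are not independent), and the enzymes that fell ranged from 41.0% GC for MTHFD2 to 58.1% for PHGDH. With that trend removed, all 6 were still called lower, at log2 fold changes of -1.46 for MTHFD2, -1.32 for SHMT2, -1.23 for PHGDH, -1.04 for ALDH1L2, -0.65 for PSAT1 and -0.54 for MTHFD1L.

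Of 43 other genes of folate, glycine and methionine metabolism, 37 could be tested, of which 6 were called lower and 2 higher, against 8.42% and 9.38% of all genes tested, and their median log2 fold change was -0.18. Among the 9 tested genes of glycine cleavage and use, GCSH, the lipoyl carrier of the glycine cleavage system, was the sole call. It had 18.2, 21.0 and 23.3 CPM in SH_tau, against 36.9, 56.4 and 28.9 CPM in SH_ctrl (log2 fold change -0.97, SE 0.23, edgeR adjusted p 0.0278). GLDC, the decarboxylase of the same system, averaged 10.2 CPM in SH_tau and 9.32 CPM in SH_ctrl and was not called. Among 6 carriers, SLC25A32, which brings folate into the mitochondrion, had 6.21, 7.82 and 7.37 CPM in SH_tau, against 13.5, 12.1 and 9.26 CPM in SH_ctrl (log2 fold change -0.70, adjusted p 0.0497). SFXN1, a carrier of serine into the mitochondrion, averaged 18.3 CPM in SH_tau and 18.5 CPM in SH_ctrl.

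Among 13 tested other folate enzymes, MTHFD2L, a mitochondrial relative of MTHFD2, had 6.61, 7.90 and 7.70 CPM in SH_tau, against 13.9, 11.1 and 9.53 CPM in SH_ctrl (log2 fold change -0.64, edgeR adjusted p 0.0649). GGH, which trims the glutamate tail of folates, fell with a log2 fold change of -0.96 (adjusted p 0.0258). TYMS, GART and ATIC, which use folate in nucleotide synthesis, were not called, at log2 fold changes between -0.25 and 0.11. In the methionine cycle, MAT2A and MAT2B, the subunits of the enzyme that makes S-adenosylmethionine, were called lower (-0.80 and -0.83, adjusted p 0.0903 and 0.0526). The genes called higher were low in reads: the folate receptor FOLR1 had 1.14, 0.798 and 1.17 CPM in SH_tau, against 0.247, 0.354 and 0.477 CPM in SH_ctrl (1.54, adjusted p 0.0276), and FTCD, which joins histidine breakdown to folate, averaged 3.10 CPM in SH_tau and 1.30 CPM in SH_ctrl (1.25, adjusted p 0.0349). Lower calls fell without SH_ctrl replicate 1 and without each SH_tau library, and so did those over all genes (1413 with all libraries). Without SH_ctrl replicate 1, 0 genes were called lower and 0 higher, against 71 and 179 over all genes. At an unadjusted p under 0.05 in that edgeR fit, 6 were lower and 3 higher. Over all genes, 3506 of 17028 tested had such a p in either direction. Without SH_tau replicates 1, 2 and 3, the lower calls were 3, 2 and 2, against 732, 428 and 422 over all genes. Without SH_tau replicate 2, 1 gene was called higher, against 657 over all genes (1573 with all libraries).

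**Figure D4:**
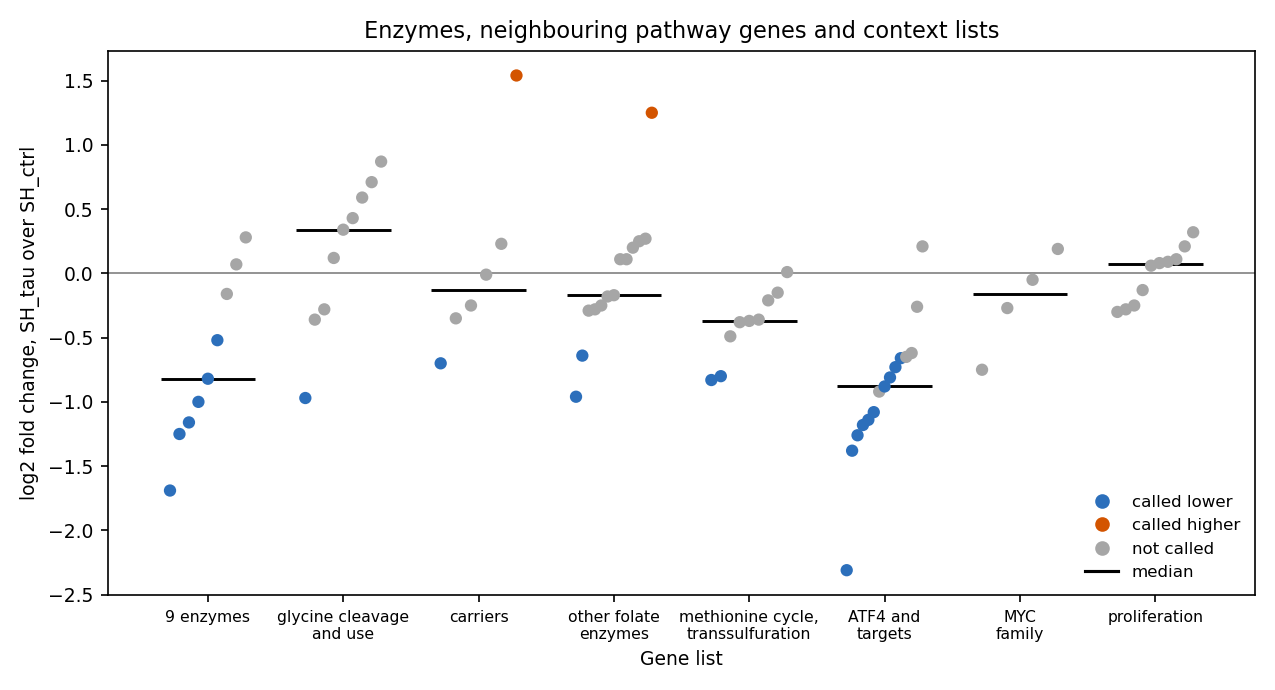
Log2 fold change of SH_tau over SH_ctrl for each tested gene, 1 point per gene sorted within its list, coloured by call, with a bar at the list's median. The medians are -0.82 for the 9 enzymes and -0.88 for ATF4 and its targets. They are -0.13 for carriers, -0.17 for other folate enzymes and -0.37 for the methionine cycle and transsulfuration. For the MYC family the median is -0.16, and for proliferation genes 0.07. It is 0.34 for glycine cleavage and use, where 1 gene was called lower and 0 higher.

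Further lists give the surroundings of these genes. Of 15 genes made up of ATF4 and of known targets outside the pathway, 10 were called lower and 0 higher, against 8.42% and 9.38% of all genes tested, with a median log2 fold change of -0.88. SLC7A11, the cystine carrier, had 1.28, 1.64 and 1.58 CPM in SH_tau, against 11.4, 4.36 and 6.54 CPM in SH_ctrl (log2 fold change -2.31, edgeR adjusted p 0.00674). TRIB3, a pseudokinase that is induced by ATF4, and ATF5, a related transcription factor, had log2 fold changes of -1.26 and -1.14 (adjusted p 0.0076 and 0.00761). The transcript of ATF4 itself had 268, 342 and 357 CPM in SH_tau, against 373, 305 and 483 CPM in SH_ctrl, and was not called (-0.26, adjusted p 0.438). Without SH_ctrl replicate 1, 4 genes of this list were called lower, against 71 over all genes. Without SH_tau replicate 1, 6 were called lower, against 732 over all genes. The 4 MYC family genes and 10 proliferation genes gave 0 calls in either direction with edgeR, DESeq2 and limma-voom and 0 at an unadjusted p under 0.05, with medians of -0.16 and 0.07. The proliferation genes summed to 611, 481 and 483 CPM in SH_tau, against 581, 563 and 545 CPM in SH_ctrl.

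The genes whose pattern over the 6 libraries was most like that of SHMT2, by Euclidean distance of centred log2 CPM among 10478 genes with a mean of at least 5 CPM, were ATF5 (0.223), CEBPG (0.236), RCN1 (0.338), SARS (0.346) and NELL2 (0.356). Those nearest to ALDH1L2 were TRIB3 (0.271), POU3F3 (0.351), DDR2 (0.405), CEBPG (0.406) and ASNSP1 (0.441). Those nearest to MTHFD2 were FAM129A (0.398), HERPUD1 (0.472), ASNSP1 (0.516), PTGFR (0.517) and TRIB3 (0.611). These enzymes were those with the smallest p, all lower in SH_tau, so genes near them are lower there by the way they were found. CEBPG, a partner of ATF4, had 65.7, 73.1 and 81.6 CPM in SH_tau, against 173, 142 and 159 CPM in SH_ctrl. ASNSP1 is a pseudogene of ASNS, asparagine synthetase, and had 6.21, 7.65 and 7.99 CPM in SH_tau, against 24.7, 12.9 and 20.9 CPM in SH_ctrl. ASNS had 0.705, 1.47 and 1.17 CPM in SH_tau, against 2.81, 1.49 and 2.04 CPM in SH_ctrl, so most reads of this pair stood on the pseudogene, and the level of ASNS is uncertain.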

How the data were processed

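RNA-seq was made from 3 SH_tau and 3 SH_ctrl libraries of SH-SY5Y cells. Per the labels, bases were called with bcl2fastq 1.8.4, reads were aligned with TopHat2 2.1.0 to GRCh38, and the authors made the deposited counts with featureCounts 1.5.0, keeping 1 alignment per read. The labels and the study's methods name different stranded poly(A) library kits. The authors made the deposited RPM values by dividing counts by the library total, and the deposited RPKM values by dividing further by a gene length. Counts served for all tests, RPM for an alternative, and RPKM for levels and ratios between genes.

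Counts were tested in R 4.3.3 with edgeR 4.0.16 (TMM, low-count filter, quasi-likelihood test on the label alone) and Benjamini-Hochberg adjustment over all genes tested, with calls at an adjusted p under 0.1 and a log2 fold change beyond 0.5 in either direction. The fit was tested on simulated data. Log2 CPM used a prior count of 2. Alternatives used DESeq2 1.42.0, limma 3.58.1, other scalings and covariates, and fits without each library. Gene models, GC content and canonical transcripts came from GENCODE 44. Named beside the 9 enzymes were the genes of each role group called with the smallest p, up to 2 in each direction, and up to 3 genes of each context list. GLDC, SFXN1, TYMS, GART, ATIC, ATF4, CEBPG and the ASNS pair were added after their values were seen. Single values of some listed genes are not reported here. The enzymes and lists were chosen with earlier results of these data known.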

Additional observations from a re-analysis of the deposited data

How the results depend on the processing

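The 20 alternatives left 4 to 6 enzymes called lower and 0 called higher, and the 6 fits that each leave out 1 library also gave 4 to 6. PHGDH, SHMT2, MTHFD2 and ALDH1L2 kept their calls in all 20, over log2 fold changes of -2.01 to -1.45 for MTHFD2 and -1.49 to -1.09 for SHMT2. PSAT1 lost its call with the GC trend removed together with a replicate block (-0.64, adjusted p 0.174) and without SH_ctrl replicate 1. MTHFD1L lost its call with DESeq2 and with DESeq2 size factors in edgeR (-0.50 in each), under an adjusted p limit of 0.05 (-0.52), with a replicate block (-0.51, adjusted p 0.173), with that block and GC (-0.54), with the mitochondrial share as covariate (-0.61) and in 5 of the fits without 1 library. Signs of uncalled enzymes turned for PSPH (total counts -0.28, covariate -0.06, RPM with a pseudocount of 0.5 or 0.1 -0.27, without SH_tau replicate 2 -0.05, and over all fits without 1 library -0.05 to 0.18), SHMT1 (total counts -0.05, covariate -0.16, RPM -0.04 with either pseudocount) and MTHFD1 (without SH_ctrl replicate 3, 0.02, and over all fits without 1 library -0.34 to 0.02).

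Of the other pathway genes, 6 lower and 2 higher in the fit reported, 10 were lower under total counts, 11 with limma on RPM at either pseudocount, 3 under the limit of 0.05, 2 with the covariate and 0 with the GC trend removed and a replicate block. Lower calls over all genes tested were 1413 in the fit reported, 2886 under total counts, and 2693 and 2779 with limma on RPM. They were 716 under the limit of 0.05, 601 with the covariate and 161 with GC and block. Higher calls were 4 with no filter on low counts, 1 with the GC trend removed, 1 with the covariate and 0 with GC and block. Over all genes they were 2185, 1062, 721 and 410 in the same order, against 1573 in the fit reported. Leaving out 1 library gave 0 to 6 lower and 0 to 2 higher, and over all genes 71 to 2541 lower and 179 to 2603 higher. The cause of these differences was not tested. Deviations from the group mean correlated at r of -0.152, -0.458 and 0.167 between same-numbered libraries, and at -0.364 to 0.441 between the others. Centring within groups of 3 libraries ties these values to each other, so they do not settle whether the replicate numbers pair the samples. With the replicate block, 5 enzymes were called lower, 5 other pathway genes lower and 2 higher, and 925 genes lower and 1286 higher over all genes. The difference of the mean log2 ratios, SH_tau minus SH_ctrl, lay between -1.62 and -1.26 for SHMT2 over SHMT1, between -1.72 and -1.18 for MTHFD2 over MTHFD1 and between -0.50 and -0.19 for MTHFD1L over MTHFD1 without 1 library.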
